A study of Mus musculus with 2 samples.

Results

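Ebf1, Ebf2, Ebf3 and Ebf4 (the early B-cell factors) and Nhlh1 and Nhlh2 (nescient helix-loop-helix 1 and 2) were followed in single hypothalamic neurons of newborn mice. These 6 genes were taken by symbol from the 24905 genes of the merged count table, and all 6 had counts. They were chosen by family name with their counts per library and neuron group already in view, so every level and difference here is a description and carries no test. Single cells were captured in droplets with barcoded beads (Drop-seq), and each captured RNA molecule was counted by a unique molecular identifier (UMI). The control library came from Sim1-Cre;tdTomato+/- pups and the Sim1 heterozygous library from Sim1-Cre;tdTomato+/-;Sim1+/- pups, all CD-1 mice aged postnatal day 1 to 4. Both groups thus carried the Cre transgene and the reporter, and cells positive for the red protein tdTomato and free of a dead-cell dye were sorted. The reporter (Ai14) stays on in any cell that expressed Sim1-driven Cre, or whose precursor did, so the sort holds the Sim1 lineage and not only cells that still make Sim1. Each library pooled 6 pups per the labels, and there was 1 library per genotype, so a difference compares 2 libraries and not 2 genotypes, with no replicate check. How far ages, litters or sorts differed between the pools was not tested.

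The Ebf proteins are transcription factors that bind DNA as dimers through a domain found in no other family. Ebf1 is best known for committing precursors to the B-lymphocyte lineage, and in the nervous system Ebf genes act in newborn neurons downstream of proneural factors, in migration and in subtype choice. Nhlh1 and Nhlh2 are basic helix-loop-helix proteins of postmitotic neurons, and mice that lack Nhlh2 become obese as adults and have reproductive defects. Sim1 is needed to form the paraventricular nucleus of the hypothalamus, which restrains feeding.

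In the mm10 build Ebf1 lies on chromosome 11 (44617317 to 45008091, plus strand), Ebf2 on chromosome 14 (67233292 to 67430918, plus) and Ebf3 on chromosome 7 (137193673 to 137314445, minus). Ebf4 lies on chromosome 2 (130295169 to 130370481, plus), Nhlh1 on chromosome 1 (172052292 to 172057573, minus) and Nhlh2 on chromosome 3 (102010076 to 102015492, plus). All are protein-coding genes. The upstream DNA of 3 genes is shown because helix-loop-helix proteins, Nhlh1 and Nhlh2 among them, bind E-boxes (CANNTG, read on both strands, which are the same for this palindrome). The sequences are from RefSeq for the GRCm38.p6 assembly, 5′ to 3′ on the gene's strand, outside the annotated gene, with E-boxes in capitals. They cover chr7:137314446-137314695 (Ebf3), chr1:172057597-172057846 (Nhlh1) and chr3:102009895-102010075 (Nhlh2).
Ebf3: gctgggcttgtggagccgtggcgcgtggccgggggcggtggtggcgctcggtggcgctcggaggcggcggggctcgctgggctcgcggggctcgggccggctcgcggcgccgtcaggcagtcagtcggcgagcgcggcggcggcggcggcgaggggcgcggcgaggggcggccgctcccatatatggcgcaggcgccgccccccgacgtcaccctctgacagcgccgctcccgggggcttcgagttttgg
Nhlh1: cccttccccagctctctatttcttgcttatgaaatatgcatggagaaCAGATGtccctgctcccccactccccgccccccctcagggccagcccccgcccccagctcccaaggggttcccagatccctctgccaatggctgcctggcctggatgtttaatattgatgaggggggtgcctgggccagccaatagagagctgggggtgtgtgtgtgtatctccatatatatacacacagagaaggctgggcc
Nhlh2: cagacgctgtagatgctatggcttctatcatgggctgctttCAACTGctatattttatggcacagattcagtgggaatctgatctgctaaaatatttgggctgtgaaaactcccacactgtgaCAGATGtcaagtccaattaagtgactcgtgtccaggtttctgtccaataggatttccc
The Ebf3 window held 0 E-boxes, the Nhlh1 window 1 and the Nhlh2 window 2. E-boxes were found in 66.2% of 32851 promoters over 250 bases and in 55.7% over 181 bases, so their presence does not set these windows apart. These matches describe letters only.

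The control library had 2807 barcodes with 6525080 UMIs, and the Sim1 heterozygous library 2476 barcodes with 5397693 UMIs, with no barcode in common. Cells in which at least 3 of 12 pan-neuronal genes were detected, and more of these than of 12 glial genes, were called neuron-like: 2751 control cells (98.0% of those kept) and 2382 Sim1 heterozygous cells (97.1%), with medians of 1789 and 1628 UMIs per cell. Glia-like cells numbered 38 and 49. Levels are given as CPM, that is counts scaled to a total of 1000000 over neuron-like cells, with exact 95% Poisson intervals in brackets. These and all other intervals cover counting error only.

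Nhlh2 and Ebf3 gave most of the UMIs counted for the 6 genes, and Ebf1, Ebf2 and Ebf3 were lower in the Sim1 heterozygous library while Nhlh2 was at a like level in both. Ebf1 was counted 132 times in control and 45 times in Sim1 heterozygous neuron-like cells, which is 20.5 CPM [17.1 to 24.3] against 8.45 [6.16 to 11.3]. Ebf2 gave 115 and 47 UMIs, or 17.9 CPM [14.7 to 21.4] against 8.83 [6.49 to 11.7]. Ebf3 gave 446 and 210 UMIs, or 69.2 CPM [63.0 to 76.0] against 39.4 [34.3 to 45.2]. For these 3 genes the intervals of the libraries did not overlap. The share of all genes that separate in this way is not given here, so this alone does not set the 3 apart. Ebf4, a family member whose role in neurons is little known, gave 41 and 27 UMIs, at 6.37 CPM [4.57 to 8.64] and 5.07 [3.34 to 7.38]. Nhlh1 gave only 12 and 5 UMIs, at 1.86 CPM [0.963 to 3.25] and 0.939 [0.305 to 2.19]. The intervals of Ebf4 and of Nhlh1 overlapped widely between the libraries. Nhlh2 gave 721 and 623 UMIs, at 112 CPM [104 to 120] and 117 [108 to 127]. Only 3' ends were captured, so counts do not scale with transcript length, but how well each 3' end is caught is unknown and levels are not ranked between genes.

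**Figure D1:**
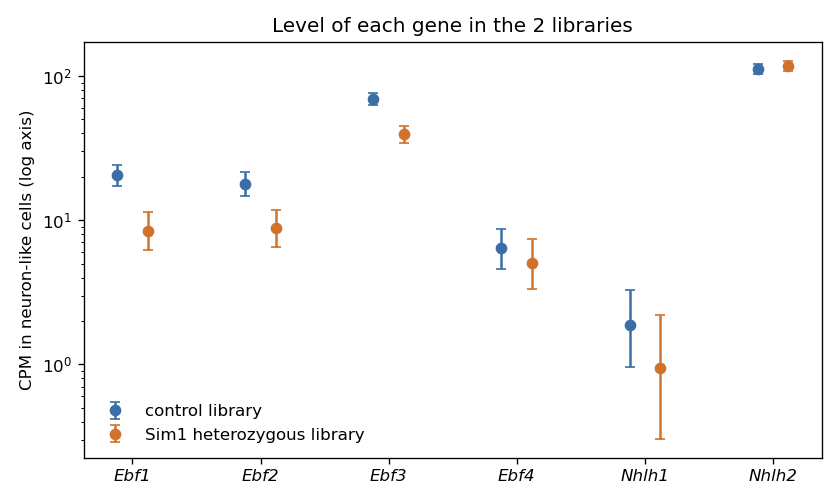
CPM of each gene in neuron-like cells (log axis) in the control and the Sim1 heterozygous library, with exact 95% Poisson intervals. Ebf1 (20.5 and 8.45), Ebf2 (17.9 and 8.83) and Ebf3 (69.2 and 39.4) sit apart in the 2 libraries, while the intervals of Ebf4, Nhlh1 and Nhlh2 overlap. The share of all genes that sit apart in this way is not given here.

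The log2 ratio of Sim1 heterozygous over control (1 UMI added per library) was -1.26 [-1.80 to -0.78] for Ebf1, -0.998 [-1.54 to -0.51] for Ebf2 and -0.81 [-1.06 to -0.57] for Ebf3. It was -0.31 [-1.09 to 0.41] for Ebf4, -0.84 [-2.85 to 0.62] for Nhlh1 and 0.06 [-0.09 to 0.22] for Nhlh2. Of the 5 genes with 30 or more UMIs in the 2 libraries together, 3 were at least 1.5-fold lower and 0 at least 1.5-fold higher. Among all 14449 genes with that many UMIs, 9.11% were at least 1.5-fold lower and 7.97% higher. Among the 10939 of these that are named protein-coding genes the shares were 2.66% and 8.09%. The median log2 ratio was 0.04 over all genes and 0.08 over the protein-coding ones. Scaled to the latter median, Nhlh2 turned from 0.06 to -0.02, and no difference in Nhlh2 was detectable at this depth.

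Mixes of cell types differed between the libraries, so the ratio was also computed with each cell given to 1 marker group and the groups weighted as in the control. Ebf1 was then at -1.12, Ebf2 at -0.76 and Ebf3 at -0.75. The differences of Ebf1 and Ebf2 were thus a little smaller at equal group weights, and that of Ebf3 nearly the same. Cells within a group can still differ in type between the libraries, and the part of the mix in these ratios was not tested. In 3 equal classes of cells by depth, chosen after the values were seen, Ebf3 was at 67.8, 55.7 and 75.7 CPM from shallow to deep control cells and at 37.6, 31.0 and 43.0 CPM in Sim1 heterozygous cells. Ebf3 was therefore lower in the Sim1 heterozygous library in each class. Nhlh2 was at 129, 121 and 103 CPM from shallow to deep control cells and at 155, 109 and 114 CPM in Sim1 heterozygous cells. Nhlh2 thus had its highest value in the shallow cells of each library, though the intervals of the 3 classes overlapped in both libraries.

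Most neuron-like cells had no UMI of any of these genes, which at this depth does not show that they lacked the RNA. Unthinned, none was counted in 68.4% of the control library and 75.1% of the Sim1 heterozygous library, and 1 gene was counted in 26.6% and 22.0%. To compare shares at equal depth, each cell was thinned to 857 UMIs, and 149 shallower control and 568 Sim1 heterozygous cells dropped out. Nhlh2 was then found in 209 of 2602 cells in control (8.03% [7.02 to 9.14]) and in 154 of 1814 in the Sim1 heterozygous library (8.49% [7.25 to 9.87]), by Clopper-Pearson intervals. Unthinned the Nhlh2 shares were 18.0% and 17.5%. Ebf3 was found in 140 thinned control cells (5.38% [4.54 to 6.32]) and 50 Sim1 heterozygous cells (2.76% [2.05 to 3.62]). Before thinning the Ebf3 shares were 10.9% and 5.96%. The shares for Ebf3 thus differed in the same direction as its CPM. Ebf1 was found in 37 (1.42%) and 12 (0.662%) thinned cells, with 3.24% and 1.47% before thinning. Ebf2 was found in 29 (1.11%) and 14 (0.772%), with 3.09% and 1.76% before thinning. The ratio of thinned shares, Sim1 heterozygous over control, was 0.465 [0.221 to 0.912] for Ebf1, 0.512 [0.363 to 0.712] for Ebf3 and 0.692 [0.338 to 1.35] for Ebf2. The last interval holds 1.

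Glia-like cells served as background, with medians of 1263 and 853 UMIs. No thinned glia-like cell had a UMI of Ebf2, Ebf3, Ebf4, Nhlh1 or Nhlh2, in 38 control and 24 Sim1 heterozygous cells, which allows shares of up to 7.89% and 12.5%. These limits hold at 857 UMIs, so such few cells bound the background only for thinned shares above them. Ebf1 was in 1 of the 38 thinned control cells. Unthinned, Ebf1 was in 2 of 38 control and 0 of 49 Sim1 heterozygous glia-like cells, and the other genes were in 0 of either. Unthinned glia-like cells are shallower than neuron-like cells, so these counts are not at equal depth. Ebf1 is also made by endothelial and mural cells, and cells with at least 3 endothelial genes (3 in control, 0 in Sim1 heterozygous) held 2 Ebf1 UMIs. The 5 endothelial genes, of which 0 were at 0 UMIs in either library, summed to 107 UMIs in control and 7 in Sim1 heterozygous cells, and within neuron-like cells to 5.90 and 1.31 CPM. They were thus lower in the Sim1 heterozygous library, as Ebf1 was, and their part in the Ebf1 difference was not tested. Fibroblast and mural genes summed to 264 UMIs in control and 61 in Sim1 heterozygous cells, but cells with at least 3 of them (4 and 1) held only 1 Ebf1 UMI. Within neuron-like cells the fibroblast and mural genes were at 6.68 and 7.32 CPM. Pituitary genes summed to 2259 UMIs in control, nearly all Gh, and 2 in Sim1 heterozygous cells, where 3 of the 5 pituitary genes in the table were at 0. The 1 control cell with at least 3 pituitary genes held 1 UMI each of Ebf2, Ebf3 and Nhlh2.

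Neuron groups were gated by marker genes, and the 6 genes took no part in the gates. Each of the 16 neuron gates took neuron-like cells with a set minimum of marker UMIs, for example at least 2 UMIs of Foxb1 and Lhx1 summed. A cell could pass several gates, which held for 38.1% of the control and 38.7% of the Sim1 heterozygous cells, while 24.9% and 26.9% passed none. The gates are marker sets and not clusters. For each gate the level inside was set against that of all other neuron-like cells of the same library, and a gene was called only when at least 1.5-fold apart in the same direction in both libraries. Ratios add 1 UMI to each side, which lifts the ratio of small gates, so the share of all genes called is given beside each call. Calls were counted for Ebf1, Ebf2, Ebf3 and Nhlh2, which had at least 30 UMIs in each library. Cells were also gated by transmitter (GABAergic, glutamatergic) and as young neurons, and these gates are counted apart from the 16. Gates of Pmch cells (28 and 9 cells) and of arcuate peptide cells (14 and 3) were too small in the Sim1 heterozygous library.

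Ebf1 and Ebf2 stood high together in cells with Fezf1 or Nr5a1 UMIs, genes that mark the ventromedial nucleus. There Ebf1 gave 17 UMIs in 10 of 52 control cells, at 79.4 CPM [46.2 to 127] against 18.5 CPM in the other neuron-like cells. In the 26 Sim1 heterozygous cells of this gate it gave 4 UMIs in 2 cells, at 38.8 CPM [10.6 to 99.2] against 7.85. The log2 ratios of gate over other cells for Ebf1 were 2.17 [1.27 to 2.84] and 2.59 [0.36 to 3.77]. Ebf2 gave 21 UMIs in 11 control cells, at 98.0 CPM [60.7 to 150] against 15.1, so that 1.89% of the control cells held 18.3% of its UMIs. In Sim1 heterozygous cells it gave only 2 UMIs in the gate, at 19.4 CPM [2.35 to 70.0] against 8.62. The log2 ratios for Ebf2 were 2.75 [1.94 to 3.39] and 1.72 [-1.92 to 3.11], so the rise of Ebf2 in the gate rests on the control library. Of the 4 genes, 2 were called higher in this gate, where 11.2% of 11573 genes were. The gate holds deep cells, with medians of 4061.5 and 3805.5 UMIs. By depth class, Ebf2 went from 11.3 CPM [5.64 to 20.2] in shallow to 21.7 [17.3 to 26.9] in deep control cells. In Sim1 heterozygous cells it went from 3.41 [0.414 to 12.3] to 9.66 [6.65 to 13.6], and the intervals overlapped in both libraries. Ebf1 was at 22.6 and 21.7 CPM in these control classes and at 6.83 and 9.08 in the Sim1 heterozygous ones. What part depth has in the levels of this gate was not tested. In thinned cells Ebf2 was found in 9.62% [3.20 to 21.03] of the control gate and 0.941% of the other cells, whereas Ebf1 was found in 1 of 52 cells (1.92%) against 1.41%.

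Ebf1 was also higher in cells with Otp UMIs. Otp, like Sim1, is a transcription factor needed for the peptide neurons of the paraventricular nucleus. In the 519 control cells of the gate Ebf1 gave 46 UMIs, at 29.5 CPM [21.6 to 39.4] against 17.6 in the other cells, a log2 ratio of 0.76 [0.20 to 1.28]. In the 251 Sim1 heterozygous cells it gave 21 of the library's 45 UMIs, at 23.5 CPM [14.6 to 36.0] against 5.42, a log2 ratio of 2.13 [1.201 to 3.03]. Ebf1 was the 1 gene of 4 called higher in Otp cells, where 1.62% of all genes were. With 1 more Otp UMI required, the control ratio was 0.32, which is under 1.5-fold and ends the call. Thinned, Ebf1 was found in 1.74% [0.801 to 3.29] of control Otp cells against 1.34% of the others, so the shares did not separate there. In the Sim1 heterozygous library it was found in 3.36% [1.46 to 6.52] against 0.254%.

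Ebf1 and Ebf2 were both low in Foxb1 or Lhx1 cells, the mammillary type, which formed 32.1% of the neurons in control and 47.1% in the Sim1 heterozygous library. Ebf1 gave 7 UMIs in 882 control cells and 7 in 1123 Sim1 heterozygous cells, at 3.49 CPM [1.40 to 7.18] and 2.53 [1.02 to 5.21], against 28.2 and 14.9 in the other cells. The log2 ratios were -2.83 [-4.36 to -1.93] and -2.40 [-3.96 to -1.38]. Ebf2 gave 16 and 17 UMIs in these cells, at 7.97 CPM [4.56 to 12.9] and 6.14 [3.58 to 9.83], against 22.3 and 11.7, with log2 ratios of -1.41 [-2.35 to -0.72] and -0.90 [-1.89 to -0.03]. Thus 2 of 4 genes were called lower here, against 3.34% of all genes. In cells with Hopx or Rprm UMIs, most of which passed another gate, Ebf1 was called lower as well (log2 ratios -1.55 and -0.96), the 1 gene of 4, against 1.55% of all genes. In those that passed no other neuron gate, with 1 and 3 Ebf1 UMIs, the ratios were -1.32 and 1.44, which ends that call. The Foxb1 or Lhx1 gate, low in Ebf1, was larger in the Sim1 heterozygous library. Outside this gate the log2 ratio of Ebf1, Sim1 heterozygous over control, was -0.90 [-1.49 to -0.39]. The mix of cells outside the gate differed as well, and the part of the mix in the lower Ebf1 was not tested.

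Ebf3 had its highest CPM among the gates of at least 20 cells in Neurod6 or Neurod2 cells of each library, which carry neuronal differentiation factors of the basic helix-loop-helix class. There it gave 43 UMIs in 25 of 72 control cells, at 206 CPM [149 to 278] against 64.7 in the others, and 15 UMIs in 9 of 34 Sim1 heterozygous cells, at 118 CPM [66.1 to 195] against 37.5. The log2 ratios for Ebf3 were 1.70 [1.19 to 2.13] and 1.74 [0.79 to 2.41]. Thinned, Ebf3 was found in 12.7% [5.96 to 22.7] of the control gate against 5.18% of the others. In the Sim1 heterozygous library it was found in 6.06% [0.743 to 20.2] against 2.70%, so the shares did not separate there. The intervals of the CPM overlapped with those of the next gates, Sst in control and Emx2 or Fezf2 in Sim1 heterozygous cells. Ebf1 (8 and 2 UMIs) and Ebf2 (8 and 3 UMIs) were called higher in this gate as well, but each of their intervals held 0. So 3 of 4 genes were called, against 9.91% of all genes.

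Ebf3 stood high in cells with at least 3 UMIs of Sst, the neuropeptide somatostatin, and Nhlh2 was called higher there only by a narrow margin. Ebf3 gave 38 UMIs in 23 of 75 control cells, at 180 CPM [128 to 248] against 65.5, and 14 UMIs in 9 of 60 Sim1 heterozygous cells, at 75.8 CPM [41.4 to 127] against 38.1. Its log2 ratios were 1.495 [0.94 to 1.94] and 1.08 [0.09 to 1.77]. Thinned, Ebf3 was found in 19.7% [11.2 to 30.9] of control Sst cells against 4.98% of the others, but in 3.64% [0.443 to 12.5] against 2.73% in the Sim1 heterozygous library, so the shares did not separate there. Nhlh2 gave 44 UMIs in 27 control Sst cells, at 209 CPM [152 to 280] against 109, and 31 UMIs in 13 Sim1 heterozygous cells, at 168 CPM [114 to 238] against 115. Its log2 ratios were 0.97 [0.47 to 1.38] and 0.59 [-0.03 to 1.06]. With 1 more Sst UMI required they were 0.94 and 0.03, and in cells that pass exactly 1 neuron gate 0.53 and 1.26, and each of these ends the call of Nhlh2. Thinned, Nhlh2 was found in 19.7% [11.2 to 30.9] of control and 20% [10.4 to 33.0] of Sim1 heterozygous of Sst cells against 7.70% and 8.13% of the others. These were 2 of 4 genes, against 8.36% of all genes.

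Ebf3 was low in cells with Zic1 to Zic5 UMIs. Zic genes encode zinc finger factors of dorsal and anterior brain territories. Ebf3 gave 16 UMIs in 7 of 380 control cells, at 14.8 CPM [8.44 to 24.0] against 80.3, and 9 UMIs in 7 of 172 Sim1 heterozygous cells, at 16.9 CPM [7.74 to 32.1] against 41.9. The log2 ratios were -2.36 [-3.26 to -1.73] and -1.16 [-2.46 to -0.35], and Ebf3 was the 1 gene of 4 called lower, against 2.88% of all genes. In the Zic cells that passed no other neuron gate (79 and 48 cells, with 1 and 3 Ebf3 UMIs) the ratios were -2.51 and 0.15, which ends the call. Splitting the Zic cells by Otp, a choice made after the values were seen, Ebf3 gave 2 UMIs in 172 control cells with Otp and 14 in 208 without. In Sim1 heterozygous cells these counts were 1 in 86 and 8 in 86. Ebf3 was thus at 3.96 and 3.17 CPM in the cells with both Zic and Otp, and at 24.2 and 37.1 CPM in Zic cells without Otp. In Nts cells (neurotensin) Ebf3 was called lower too, with 10 UMIs in 92 control cells and 0 in 140 Sim1 heterozygous cells, the 1 gene of 4, against 2.83% of all genes. The control ratio there was -0.67 [-1.87 to 0.09], and 1 count of 0 carries this call. With 1 more Nts UMI required the control ratio was -0.56, which ends the call.

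Nhlh2 was counted in each of the 14 gates compared, in both libraries. In control it ran over these 14 from 42.8 CPM in Crh cells to 209 CPM in Sst cells, and the GABAergic gate, described further on and not among the 14, was lower at 24.7 CPM. In the Pmch gate, cells rich in the mRNA of melanin-concentrating hormone, Nhlh2 gave 0 UMIs in 28 control cells, where 3 UMIs would be 25.9 CPM, against 114 CPM in the other cells, so that it was at least 4.40-fold lower. Ebf3 also gave 0 UMIs in these cells, while Ebf2 gave 4 in 3 of them. In cells rich in Avp or Oxt, the vasopressin and oxytocin mRNAs of magnocellular neurons, Nhlh2 gave 21 UMIs in 130 control cells, at 57.3 CPM [35.5 to 87.6] against 115, and 2 UMIs in 28 Sim1 heterozygous cells, at 25.9 CPM [3.14 to 93.6] against 118. It was called lower, the 1 gene of 4, against 6.55% of all genes. The log2 ratios were -0.94 [-1.71 to -0.38] and -1.61 [-5.24 to -0.33]. Ebf2 was called higher there from 9 and 1 UMIs, against 11.5% of all genes, with intervals that held 0, and Ebf1 gave 0 UMIs in either library. Cells that passed no neuron gate had more Nhlh2 than the gated cells, at 156 CPM [134 to 181] against 103 in control and 174 [147 to 205] against 107 in Sim1 heterozygous cells. Thinned, 10.5% [8.17 to 13.2] and 13.5% [10 to 17.6] of these cells had a Nhlh2 UMI, against 7.28% and 7.36% of the gated ones. Shallow cells pass gates less easily, and Nhlh2 also had its highest CPM in the shallow class. What part depth has in this was not tested.

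**Figure D2:**
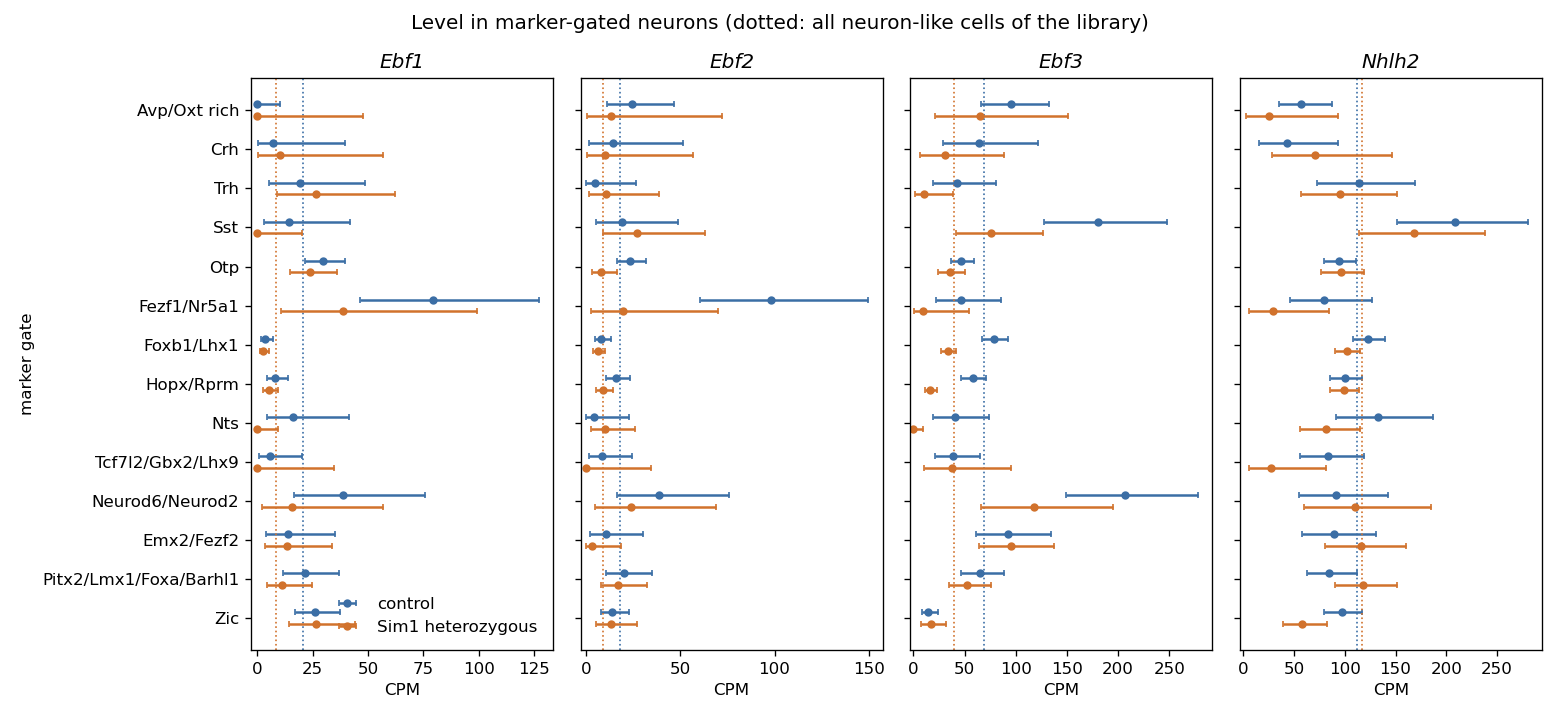
CPM of Ebf1, Ebf2, Ebf3 and Nhlh2 in the 14 neuron gates with at least 20 cells in each library, with exact 95% Poisson intervals, and dotted lines at the level in all neuron-like cells. In control, Ebf1 and Ebf2 peak in Fezf1 or Nr5a1 cells (79.4 and 98.0 CPM). Also in control, Ebf3 peaks in Neurod6 or Neurod2 and in Sst cells (206 and 180 CPM), and Nhlh2 in Sst cells (209 CPM). In the Sim1 heterozygous library Ebf2 is instead highest in Sst cells (27.1 CPM, from 5 UMIs). Ebf3 is there higher in Emx2 or Fezf2 cells (95.8 CPM) than in Sst cells (75.8 CPM).

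Nhlh1 was rare, and its few UMIs were mostly in Trh cells, which make thyrotropin-releasing hormone. Of the 12 control UMIs, 8 lay in 7 of the 67 Trh cells, at 38.0 CPM [16.4 to 74.8] against 0.642 in the others. Of the 5 Sim1 heterozygous UMIs, 2 lay in 2 of the 46 Trh cells, at 10.6 CPM [1.29 to 38.5] against 0.584. The log2 ratios were 5.73 [3.99 to 8.07] and 4.36 [0.61 to 7.31], and 9.4% of all genes were called higher in the Trh gate. The order rests on 17 UMIs in all. Ebf4 UMIs were scattered, with at most 15 in any neuron gate of a library. In the Foxb1 or Lhx1 gate Ebf4 gave 15 and 14 UMIs, at 7.47 and 5.06 CPM, and in the Otp gate 11 and 6, at 7.06 and 6.72 CPM. No Ebf4 pattern over neuron groups could be read at this depth.

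The lower level of Ebf3 in the Sim1 heterozygous library was seen in most gates but not in all. By CPM it was lower in 12 of the 14 neuron gates with at least 20 cells in each library and 10 UMIs in all, and the interval of the ratio left out 0 in 4 of them. Gates share cells, and the share of all genes with such counts is not given here. That limit also holds for the like counts of Ebf1, Ebf2 and Nhlh2 further on. Of the gates counted apart, Ebf3 was lower in glutamatergic and young cells and higher in GABAergic cells. In Foxb1 or Lhx1 cells Ebf3 was at 78.7 CPM [66.9 to 92.0] from 158 UMIs in control and 33.9 [27.4 to 41.5] from 94 UMIs in Sim1 heterozygous cells, a log2 ratio of -1.21 [-1.60 to -0.84]. In Hopx or Rprm cells it was at 58.0 CPM [46.9 to 70.9] and 16.1 [11.0 to 22.8], a log2 ratio of -1.82 [-2.47 to -1.26]. In Sst cells the log2 ratio was -1.19 [-2.25 to -0.33]. The first 2 gates share many cells, and the split of them was chosen after the values were seen: the ratio was -1.45 [-2.42 to -0.57] in cells of both, -0.89 [-1.33 to -0.48] in Foxb1 or Lhx1 cells without Hopx or Rprm, and -1.48 [-2.51 to -0.71] in Hopx or Rprm cells without Foxb1 or Lhx1. In Nts cells the control level was 40.3 CPM and the 0 UMIs in Sim1 heterozygous cells allow up to 7.66 CPM, so that Ebf3 was at least 5.27-fold lower. The 10 control UMIs lay in 4 cells, however, 5 of them in 1 cell. Without that cell, a choice made after the values were seen, the control level was 20.9 CPM and the bound 2.73-fold. Thinned, Ebf3 was in 2 of 89 control cells (2.25% [0.273 to 7.88]) and 0 of 130 Sim1 heterozygous cells, up to 2.80% by the exact interval, so the shares did not separate. In cells with Emx2 or Fezf2 UMIs, by contrast, Ebf3 was at 92.7 CPM [61.1 to 135] and 95.8 [64.1 to 138], from 27 and 29 UMIs. The log2 ratio there was 0.04 [-0.76 to 0.86], an interval just above the ratio of -0.81 over all neuron-like cells. Splitting this gate by Foxb1 or Lhx1, a choice made after the values were seen, gave ratios of opposite sign. With Foxb1 or Lhx1 the ratio was -0.56 [-1.54 to 0.38], from 22 and 19 UMIs. Without them it was 1.38 [-0.18 to 3.40], from 5 and 10 UMIs. The difference of the Emx2 or Fezf2 gate from the other cells was not tested. In Zic cells the log2 ratio of Ebf3 was 0.26 [-1.16 to 1.46].

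GABAergic cells, taken by Gad1, Gad2 and Slc32a1, were few in this mostly glutamatergic lineage, with 53 control and 59 Sim1 heterozygous cells. Ebf3 gave 1 UMI in the control cells and 12 UMIs in 8 Sim1 heterozygous cells, at 6.19 CPM [0.157 to 34.5] and 56.8 [29.3 to 99.2], a log2 ratio of 2.31 [0.44 to 8.62]. Nhlh2 gave 4 UMIs in 4 control cells and 26 UMIs in 15 Sim1 heterozygous cells, at 24.7 CPM [6.74 to 63.4] and 123 [80.4 to 180], a log2 ratio of 2.05 [0.79 to 4.29]. Both genes thus stood higher in the Sim1 heterozygous library here. Of the 12 Ebf3 UMIs, 7 lay in the 14 GABAergic cells that were also Foxb1 or Lhx1 cells, a combination that only 5 control cells had. Of the 26 Nhlh2 UMIs, 19 lay outside that combination. Thinned, each library had Ebf3 in 1 of 53 cells, so the difference was not seen at that depth.

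Nhlh2 differed little between the libraries in large gates. It was at 123 CPM [108 to 139] and 102 [90.6 to 115] in Foxb1 or Lhx1 cells, a log2 ratio of -0.27 [-0.52 to -0.02], and at 107 and 133 CPM outside them, a ratio of 0.32 [0.11 to 0.52]. In Hopx or Rprm cells it was at 100.2 and 99.3 CPM, a ratio of -0.01 [-0.32 to 0.29]. In Otp cells it was at 94.3 and 96.3 CPM, a ratio of 0.04 [-0.37 to 0.42]. In Zic cells, however, Nhlh2 was at 96.9 CPM [79.3 to 117] from 105 UMIs in control and 58.3 [39.6 to 82.8] from 31 UMIs in Sim1 heterozygous cells, a ratio of -0.70 [-1.36 to -0.14]. By CPM, Nhlh2 was lower in 9 and higher in 5 of the 14 neuron gates, with 0 intervals above 0. It was higher with an interval above 0 in the GABAergic gate and in the young gate (0.91 [0.23 to 1.62]), which are counted apart. No difference between gates was tested.

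Ebf2 was lower by CPM in 8 of 8 gates with enough counts, and the interval left out 0 in 2. In Otp cells Ebf2 gave 36 and 7 UMIs, at 23.1 CPM [16.2 to 32.0] and 7.84 [3.15 to 16.2], a log2 ratio of -1.41 [-2.97 to -0.37]. In Fezf1 or Nr5a1 cells it gave 21 and 2 UMIs, a ratio of -1.82 [-5.48 to -0.31]. Ebf1 was lower by CPM in 6 of 7 gates, with 0 in each interval. In Otp cells its ratio was -0.29 [-1.15 to 0.45], and in the neuron-like cells outside the Otp gate it was -1.66 [-2.42 to -1.03]. The Otp gate held 18.9% of the neurons in control and 10.5% in the Sim1 heterozygous library. Shares of gates can move with the sort as well as with the genotype, and these cannot be told apart with 1 library each.

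**Figure D3:**
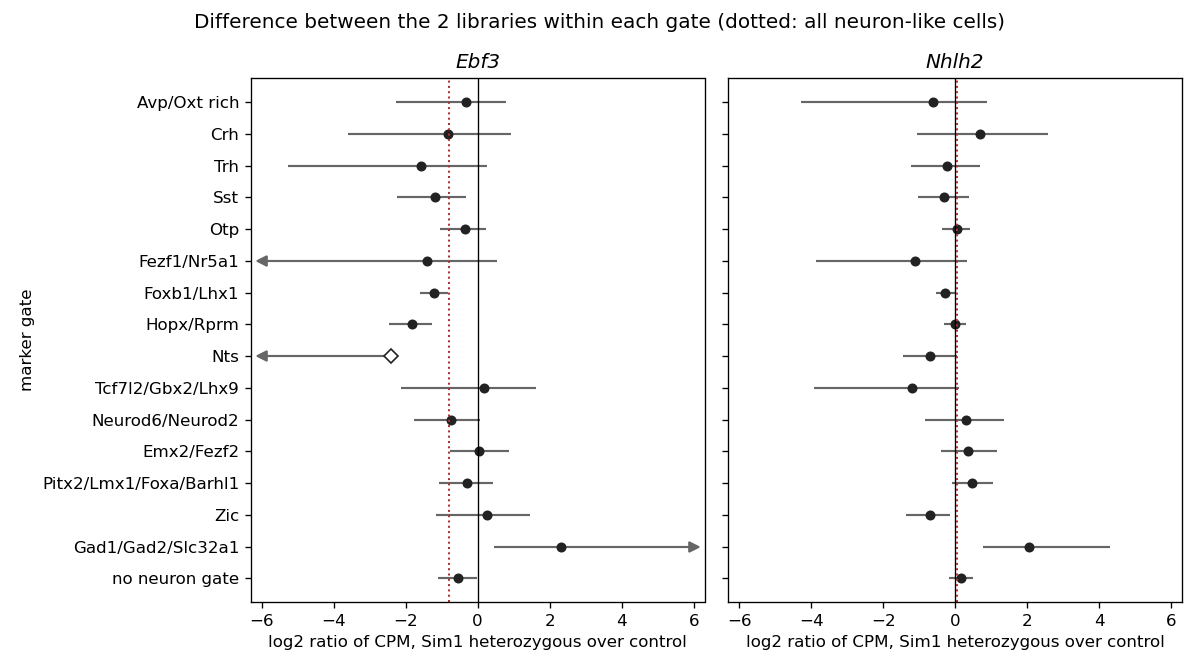
Log2 ratio of CPM, Sim1 heterozygous over control, of Ebf3 and Nhlh2 in each gate, with exact conditional 95% intervals, arrows where an interval runs past the axis, an open diamond for the limit set by 3 UMIs where the Sim1 heterozygous count was 0, and a dotted line at the ratio over all neuron-like cells. Ebf3 lies at -1.82 in Hopx or Rprm cells and at 0.04 in Emx2 or Fezf2 cells, and both genes lie above 2 in GABAergic cells.

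Co-detection was rare. Unthinned, 126 control and 65 Sim1 heterozygous cells had UMIs of 2 of the genes, 12 and 5 had 3, and none had 4. Shares were compared in cells thinned to 1500 UMIs, since at 857 UMIs the pairs were almost empty. Ebf2 was then found in 4 of 33 control cells with Ebf1 (12.1% [3.40 to 28.2]) and in 29 of 1651 without it (1.76% [1.18 to 2.51]). In the Sim1 heterozygous library Ebf2 was in 0 of 14 cells with Ebf1, which allows up to 23.2% by the exact interval, and in 1.35% of the others. At 857 UMIs there were 0 such cells among 37 and 12. Unthinned, Ebf2 was in 9 of the 89 control cells with Ebf1 and in 0 of the 35 such cells of the Sim1 heterozygous library. The control cells with both thus rest on few counts, and Ebf1 and Ebf2 were high in the same gate.

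Ebf3 and Nhlh2 were found together at about the share seen in other cells. At 1500 UMIs Nhlh2 was in 18 of 137 control cells with Ebf3 (13.1% [7.98 to 19.97]) and in 13.7% of those without, and in 8 of 62 Sim1 heterozygous cells with Ebf3 (12.9% [5.74 to 23.9]) and 14.1% without. Ebf3 was in 5 of 33 control cells with Ebf2 (15.2% [5.11 to 31.9]) and in 7.995% of those without, and in 1 of 17 and 4.85% in the Sim1 heterozygous library. Ebf3 was in 2 of 33 control cells with Ebf1 (6.06%) and in 8.18% of those without. Apart from Ebf1 with Ebf2 in control, the share in the cells without the first gene lay inside the interval for the cells with it in each of the 6 pairs of Ebf1, Ebf2, Ebf3 and Nhlh2.

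**Figure D4:**
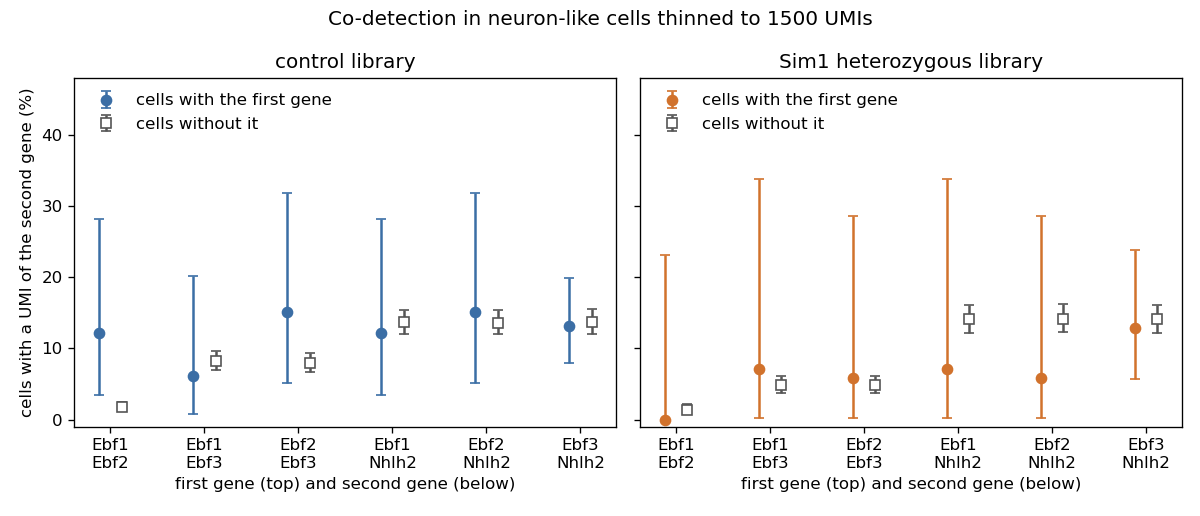
Percent of neuron-like cells, thinned to 1500 UMIs, with a UMI of the second gene among cells with (filled) and without (open) a UMI of the first gene, with Clopper-Pearson 95% intervals, in each library. In control, Ebf2 is in 12.1% of cells with Ebf1 and 1.76% of those without, and the other pairs overlap.

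Genes whose detection was most like that of each factor were ranked by the share of thinned cells with a UMI in cells with the factor over cells without it, taking the lower of the libraries. For Ebf2 these were led by Dkk3, a secreted protein of the Dickkopf family, with a ratio of 5.25, and Fezf1, with 4.53, found in 8.43% of 83 control cells with Ebf2 and 2.06% of those without. Arg2, Suv39h1, Tomm40l and Extl3 followed. For Ebf3 they were Penk (proenkephalin) at 2.88, Synpr (synaptoporin) at 2.61, Vwa5b2, Cpne4, Sst at 2.28 and Fuca2. Sst was in 7.14% of 294 control cells with Ebf3 and 2.64% of those without. Fezf1 and Sst are also gate markers, so this restates those gates. For Nhlh2, ratios were low, led by Cacfd1 at 1.67, Stk16 at 1.64 and Nfib, a nuclear factor I gene of neuronal differentiation, at 1.61. For Ebf1, Rnf25 led at 4.29, followed by Slc35g2, Ccdc6, Lrp3, Pard3 and Ak5, each near the lowest share ranked. The ranks of Ebf1 and of Ebf2, and those led by Ank for Ebf4 and by Clca3a1 for Nhlh1, rest on a handful of cells. Dkk3, for example, was in 5 control and 3 Sim1 heterozygous cells with Ebf2.

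Genes that work with these factors were followed as lists. Of 5 proneural-class genes with at least 30 UMIs, 1 was at least 1.5-fold higher and 3 lower, where 7.97% of all genes were higher and 9.11% lower. Their median log2 ratio was -0.59 beside 0.04 over all genes. Neurod1 was at 29.2 and 38.9 CPM (log2 ratio 0.41 [0.12 to 0.71]), Neurod6 at 41.9 and 27.8 (-0.59 [-0.89 to -0.30]) and Neurod2 at 11.0 and 5.82 (-0.90 [-1.58 to -0.29]). The gate in which Ebf3 was highest thus held fewer cells in the Sim1 heterozygous library, at 1.43% against 2.62%. Of the E proteins, which pair with Nhlh factors, and their Id, Lmo and Ldb partners, 0 of 11 were higher and 1 lower. The latter was Lmo4 (-0.62 [-0.75 to -0.49]). A share of 1 in 11 is near the 9.11% of all genes and above the 2.66% of protein-coding ones. The median of this list was -0.25. Zfp423 and Zfp521, zinc finger proteins that bind Ebf1 and block it, were at ratios of 0.33 [-0.04 to 0.70] and -0.12 [-0.82 to 0.55]. Over cells without Ebf1, those with it had Zfp521 (45 and 34 UMIs in all) at a log2 ratio of 1.59 in control and 1.45 in the Sim1 heterozygous library. Zfp423 was at 1.00 in control but at -0.05 in the Sim1 heterozygous library. How many of these UMIs lay in the 89 and 35 cells with Ebf1 is not given here, and no interval was computed. The added UMI lifts such ratios where counts are low. Gh, at 0 UMIs in Sim1 heterozygous neuron-like cells, stood at 4.91 by this measure. No link of Zfp521 with Ebf1 can be read from these values.

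Of 6 genes tied to Nhlh2 in the control of body weight or of reproduction, 0 were at least 1.5-fold higher and 1 lower, against 7.97% and 9.11% of all genes, with a median of -0.08. Pcsk1, the prohormone convertase gene that Nhlh2 is known to activate, was at 22.2 and 32.3 CPM (0.54 [0.21 to 0.87]), and Pcsk2 at 142 and 198 (0.48 [0.35 to 0.61]). Mc4r, the melanocortin receptor gene also tied to Nhlh2, was lower from 34 and 16 UMIs (-0.77 [-1.77 to 0.08]), and Ndn was at -0.40 [-0.44 to -0.36]. In cells with Nhlh2, Pcsk1 was at a log2 ratio of 0.13 over cells without it in control and 0.05 in the Sim1 heterozygous library. Of 10 young-neuron genes, 1 was higher (Insm1, 14 and 18 UMIs) and 3 lower: Igfbpl1 (-0.96), Sox11 (-0.77) and Cd24a (-1.04), against 7.97% and 9.11% of all genes, with a median of -0.19. In young-gated cells (100 and 51) Nhlh2 was at 84.2 and 159 CPM, a ratio of 0.91 [0.23 to 1.62], and Ebf3 at 71.4 and 22.8 CPM, a ratio of -1.48 [-3.21 to -0.35]. Of 3 measured Cajal-Retzius genes (Reln, Lhx5, Calb2), which other brain regions share with Ebf2 and Ebf3, 0 were past 1.5-fold in either direction.

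The authors' counting could mix genes that overlap. No 40-base stretch was shared between the transcripts of any pair of the 6 genes. Other annotated genes, taken on either strand, overlap Ebf1, Ebf2 and Ebf3, and held 0, 3 and 8 UMIs over all cells. Whether the counts used strand was not stated, so reads of Ebf3 and of the genes that overlap it cannot be told apart.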

How the data were processed

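The authors deposited UMI counts per gene and barcode for 2 libraries and a merged table with identical values. Per the submitters' processing notes, bcl2fastq, Picard, STAR 2.6.0b and Seurat 3 were used with mm10. The counter, annotation, strand use and barcode rule were not given in the sources used here. Per the labels' protocols, papain-dissociated, Sytox blue negative, tdTomato positive cells were sorted. The labels give 6 pooled mice, and the protocol a range.

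Of the barcodes, 1 control and 22 Sim1 heterozygous held under 300 genes and were dropped, and a limit of 20% mitochondrial UMIs removed none. No doublet caller was run. The alternative without the deepest 5 percent of cells bears on doublets. Counts were summed over cells. Ratios add 1 UMI per side, with conditional exact binomial intervals. Poisson and Clopper-Pearson intervals are at 95%. Where nothing was counted, 3 UMIs or 3 cells set the limit. Gene types and coordinates were taken from GENCODE M21, which held 94.3% of the symbols. The ratio script was tested on simulated counts. The tools were pandas 2.3.3, scipy 1.17.1, numpy 2.4.6 and Python 3.11.15.

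The genes, gates and lists were chosen with earlier results of these data known. Named are the 6 genes, up to 4 genes of each list (by UMIs, or by the distance of the interval from 0), and the 6 genes most like each factor by shares of cells, among genes with at least 100 UMIs found in at least 5% of the cells with the factor. Alternatives changed the cell filter, cell class, weighting, pseudocount, scaling, thinning and gates. With 1 library per genotype no p-value was computed.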

Additional observations from a re-analysis of the deposited data

Results flagged for a closer look

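Ebf3 and Nhlh2 were flagged because the single pair of libraries differed in opposite directions in different marker gates, each with an interval that left out 0. For Ebf3 the log2 ratio of Sim1 heterozygous over control was -1.19 in Sst cells, -1.21 in Foxb1 or Lhx1 cells, -1.82 in Hopx or Rprm cells and at most -2.40 in Nts cells, but 2.31 in GABAergic cells, from 1 and 12 UMIs. For Nhlh2 it was -0.27 in Foxb1 or Lhx1 cells and -0.70 in Zic cells, but 2.05 in GABAergic cells, from 4 and 26 UMIs. These differences between gates were not tested.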

How the results depend on the processing

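For each of the 6 genes, the direction of the library ratio stayed under each alternative except for Nhlh2, at 0.06, which was at -0.02 when scaled to the median protein-coding gene. Of 60 alternative ratios, 59 moved by less than the counting interval. Without the deepest 5 percent of cells Ebf1 was at -1.82 instead of -1.26, and as a mean over cells the control level of Ebf2 was 14.7 CPM instead of 17.9. Thinned to 1500 UMIs, shares of cells rose with depth: Ebf1 to 1.96% in control, Ebf2 to 1.96% and 1.33%, Ebf3 to 8.14% and 4.86%, Ebf4 to 1.07% in control and Nhlh2 to 13.7% and 14.0%. In cells that pass exactly 1 neuron gate, Ebf1 in Hopx or Rprm cells (1.44) and Ebf3 in Zic cells (0.15) turned to higher than in other cells in the Sim1 heterozygous library, and the cause was not tested. Where under 20 cells were left in a library, that alternative was not judged, since with few UMIs the added UMI sets the ratio. Ebf3 in Nts cells was then at 0.87 and 1.07 from 3 and 4 cells with 0 UMIs, Ebf3 in Neurod6 or Neurod2 cells at 0.70 from 8 Sim1 heterozygous cells with 0 UMIs, Nhlh1 in Trh cells at 7.18 and 6.16 from 1 and 0 UMIs, Nhlh2 in Avp or Oxt rich cells at -1.31 from 13 Sim1 heterozygous cells with 0 UMIs, and the Fezf1 or Nr5a1 gate kept 15 and 3 cells, with Ebf1 at 3.33 and 4.56 and Ebf2 at 3.97 and 5.43. With at least 10 UMIs per gene, 2258 genes were at least 1.5-fold lower and 1999 higher, against 1316 and 1152. No paired analysis was possible because the labels give 1 library per genotype and no replicate numbers. Depth limits Ebf4 and Nhlh1 most, with 68 and 17 UMIs in all.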
